A study of Mus musculus with 5 samples.

Results

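The 8 genes described here are Nr3c1, Nr3c2, Sgk1, Sgk3, Fkbp5, Tsc22d3, Zbtb16 and Plin4. They are the receptors for glucocorticoid hormones, genes that report their action, and Sgk3, whose kinase is related to that of Sgk1. They were chosen by name, with earlier results of these data known, and all 8 were found among the 55385 genes of the deposited count tables. All 8 also passed the filter on low counts, which 19768 genes passed. The study sequenced total RNA of the hippocampus of male C57/bl6 mice, 3 months of age, that were untreated or had been given kainic acid, an agonist of glutamate receptors that provokes seizures. The agent was injected intraperitoneally at 20 mg/kg, and hippocampi were taken 1, 4 or 8 h after seizures began. There were 5 libraries, 1 each for the control, 1 h and 8 h, and 2 for 4 h, here called library 1 and library 2. Experiments were done in the dark phase of the light cycle, and the paper states that the times were kept the same. The clock time at which the tissue of each library was taken is not given. After kainic acid, tissue was used only from mice whose seizures had reached continuous rearing and falling. The control mice received no injection, so that the effects of seizures, of the drug and of handling and injection cannot be told apart, and no hormone level was used here. No library came from vehicle-treated mice matched in time, so time of day cannot be told apart from these effects either. Whether a library came from 1 mouse or from several is not given in the sources used here.

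Corticosterone, the main glucocorticoid of the mouse, is released from the adrenal gland during stress, seizures and handling, and its level also follows the time of day. In the hippocampus it binds the mineralocorticoid receptor with high affinity and the glucocorticoid receptor with lower affinity, and the bound receptors enter the nucleus and act as transcription factors. Sgk1, Fkbp5, Tsc22d3, Zbtb16 and Plin4 are known to be transcribed more when these receptors are active, while several of them also respond to other signals.

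A classical binding sequence of the receptors is a palindrome of 6-base arms, AGAACA and TGTTCT, separated by 3 bases of any kind. The promoter table of RefSeq (GRCm38.p6) held 12 windows for 5 of the 8 genes, with 6 for Sgk1, 3 for Tsc22d3 and 1 each for Fkbp5, Nr3c2 and Plin4. Nr3c1, Sgk3 and Zbtb16 had no entry. The 250 bases before each start were searched on both strands. The exact palindrome was present in 1 of the 12 windows, before a start of Sgk1 at position 21993890 of chromosome 10, and in 3 of all 32851 windows of the table (0.00913%). A single arm was present in 4 of the 12 windows, 3 of Sgk1 and 1 of Tsc22d3, and in 16.1% of all windows. The letters TGACG or CGTCA, the core of the site of CREB, a factor activated by neuronal activity, were present in 2 of the 12 windows and in 17.8% of all. The Sgk1 window is shown because it carries the palindrome, with the palindrome in capitals, and the part of the Tsc22d3 window that lies before its first annotated exon is shown with the arm in capitals. A match is a description of the letters, and no binding was measured.

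Sgk1, chr10:21993640-21993889, plus strand, in an intron of 5 of the 13 annotated Sgk1 transcripts and outside all its annotated exons: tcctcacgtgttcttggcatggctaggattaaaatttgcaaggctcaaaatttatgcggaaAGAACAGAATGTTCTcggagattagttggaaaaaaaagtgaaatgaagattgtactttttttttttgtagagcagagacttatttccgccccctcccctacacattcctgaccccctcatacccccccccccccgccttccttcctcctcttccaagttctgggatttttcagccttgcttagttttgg
Tsc22d3, chrX:140600660-140600772, minus strand, upstream of the gene: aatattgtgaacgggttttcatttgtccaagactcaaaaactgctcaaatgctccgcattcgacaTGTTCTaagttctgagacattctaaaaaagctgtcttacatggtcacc

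The palindrome of Sgk1 spans 21993701 to 21993715 and begins 189 bases before the start. The arm in the Tsc22d3 window spans 140600702 to 140600707 and begins 185 bases before its start.

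The depth of the libraries, as reads assigned to genes, was 19100374 for the control, 17744508 for 1 h, 18250114 and 19109204 for the pair of 4 h, and 16612225 for 8 h. Levels are given as normalized CPM, counts scaled to a common library total with TMM factors. Intervals are exact 95% intervals, Poisson for a count and binomial for a ratio of 2 counts, and they cover counting error only, not the differences between mice. Only 4 h was replicated, so the spread between samples is known from this pair alone, and the other conditions were assumed to vary like it. Each time point was compared with the same control library, so that an unusual level in this library would enter all 3 comparisons. The counts join all transcripts of a gene and do not tell its start sites apart.

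The label of the samples was checked with 8 immediate early genes, which neuronal activity induces within minutes. All 8 were at least 2-fold higher than the control at 1 h, beside 4.14% of all genes. They were led by Npas4 with 694 CPM against 3.92, Fosb with 372 against 3.52 and Fos with 999 against 10.8. At 4 h, 4 of the 8 were at least 2-fold higher in both libraries, beside 3.91% of all genes. Library 1 alone put 8 there and library 2 alone put 4, beside 10.6% and 5.33%. The libraries differed, with Fos at 519 CPM in library 1 and 70.4 in library 2. At 8 h 2 of the 8, Fosb with 9.75 CPM and Bdnf with 96.7, remained at least 2-fold above the control, beside 5.24% of all genes. After adjustment over all genes, the edgeR test called 0 of the 8 at each time. The DESeq2 test called 1, 2 and 0 at 1, 4 and 8 h, beside 0.449%, 1.7% and 0.235% of the genes with an adjusted p.

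Library 1 at 4 h stands apart in its tissue content. The summed level of 6 choroid plexus markers was 4020 CPM in the control, 1702 at 1 h, 29.5 and 4299 in libraries 1 and 2 at 4 h, and 3113 at 8 h. Ttr, the most abundant of them, was at 16.3 CPM in library 1 and between 1573 and 3971 in the other libraries, while Folr1, Kcnj13 and Aqp1 were at 0.416, 0.356 and 0.356 CPM, and none of the 6 was at 0. Library 1 thus held almost no RNA of the choroid plexus, and the 1 h library less of it than the control. Because of this, the levels of the 8 genes at 4 h are given for both libraries. The summed oligodendrocyte markers, led by Mbp, were 3341 CPM in the control, 4165 at 1 h, 3936 and 5072 in libraries 1 and 2 at 4 h, and 3303 at 8 h. Library 2 was the highest in these markers.

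The sums of 6 neuron markers, led by Snap25, lay between 3404 and 4143 CPM, those of 6 astrocyte markers, led by Slc1a2, between 3732 and 4701, and those of 6 microglia markers, led by Csf1r, between 168 and 198. The sums of 6 endothelial and mural cell markers, led by Flt1 or Slco1a4, lay between 119 and 147 CPM, and those of 6 blood cell markers, led by Hbb-bs, between 119 and 243. The blood cell sum was highest in library 1 at 4 h, 243 CPM against 139 in the control. Within the endothelial and mural list, library 1 had Slco1a4 at 12.0 CPM against 48.6 in the control and Flt1 at 70.2 against 40.1, in opposite directions. The part of these markers in the levels of the 8 genes was not tested. No marker of these lists was at 0 in any library. The markers of neurons, the defining cells of the hippocampus, were present throughout. In whole tissue, fewer cells of a type and less RNA per cell cannot be told apart.

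**Figure D1:**
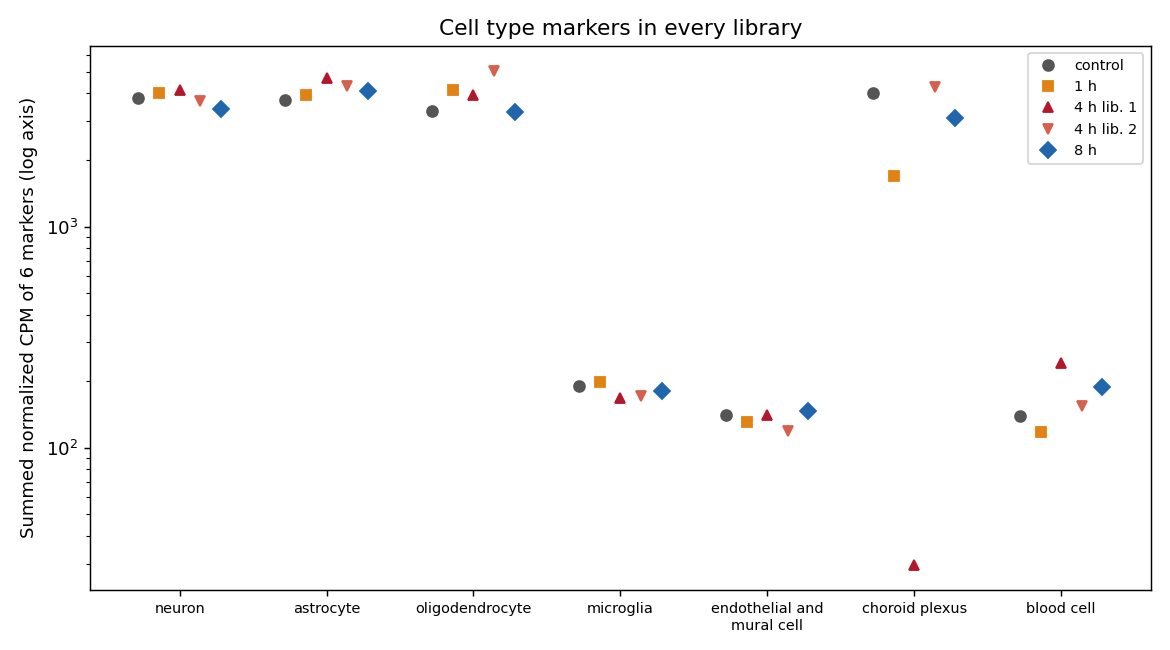
Summed normalized CPM (log axis) of 6 markers of each cell type in the 5 libraries, 1 point per library. Library 1 at 4 h lies at 29.5 CPM for choroid plexus, where the others lie between 1702 and 4299.

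The first question was whether the receptors themselves varied. Nr3c1 (ENSMUSG00000024431.15, chromosome 18, 39410545 to 39519421, minus strand) encodes the glucocorticoid receptor. It was counted 2988 times in the control, 2508 at 1 h, 1849 and 1892 in libraries 1 and 2 at 4 h, and 2305 at 8 h, or 150, 143, 110, 100 and 131 CPM. Both 4 h libraries were the lowest, and they lay closer to each other than to any other library. The pair had ratios to the control of 0.731 (0.690 to 0.775) and 0.666 (0.629 to 0.706), and the 8 h library had 0.876 (0.829 to 0.925). For 1 h this ratio was 0.95 (0.901 to 1.00), a difference not detectable beyond counting error. The fitted log2 fold change at 4 h was −0.52 with SE 0.16, and it did not pass the test (adjusted p = 0.365).

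Nr3c2 (ENSMUSG00000031618.13, chromosome 8, 76899442 to 77245012, plus strand) encodes the mineralocorticoid receptor, which is abundant in hippocampal neurons. Its level was 219 CPM in the control, 241 at 1 h, 129 and 187 in libraries 1 and 2 at 4 h, and 297 at 8 h. It was lowest in both 4 h libraries and highest at 8 h, and the control and 1 h lay between. Relative to the control, Nr3c2 stood at 1.10 (1.05 to 1.15) in the 1 h library, 0.589 (0.559 to 0.620) and 0.856 (0.819 to 0.895) in the 4 h pair, and 1.36 (1.30 to 1.41) in the 8 h library. The pair at 4 h differed 1.45-fold (1.38 to 1.53), which is more than the difference of library 2 from the control. Log2 fold changes were 0.14 at 1 h, −0.47 at 4 h and 0.44 at 8 h, with SE of 0.29, 0.25 and 0.29, and none passed the test (adjusted p = 1, 0.524 and 1.00). A gene annotated on the other strand, Gm10649, shares 3.82% of its exon length, and since the strand setting of the counting is not given, reads of this stretch cannot be assigned.

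Both receptor genes had their lowest levels in the pair of 4 h libraries. So did the neuron marker Rbfox3, with 119 CPM in the control, 115 at 1 h, 82.0 and 82.4 in libraries 1 and 2 at 4 h, and 93.0 at 8 h. The neuron markers Gad1 and Prox1 were highest there, Gad1 with 515 and 379 CPM against 256 in the control and Prox1 with 172 and 120 against 60.0. For the neuron markers Snap25, Syt1 and Slc17a7, the 4 h libraries were not both below all the others. These markers are named after their values were seen, and the part of neuron content in the receptor levels was not tested. At 8 h the receptors parted, with Nr3c1 below the control and Nr3c2 above it. This difference between the 2 receptor genes was not tested.

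**Figure D2:**
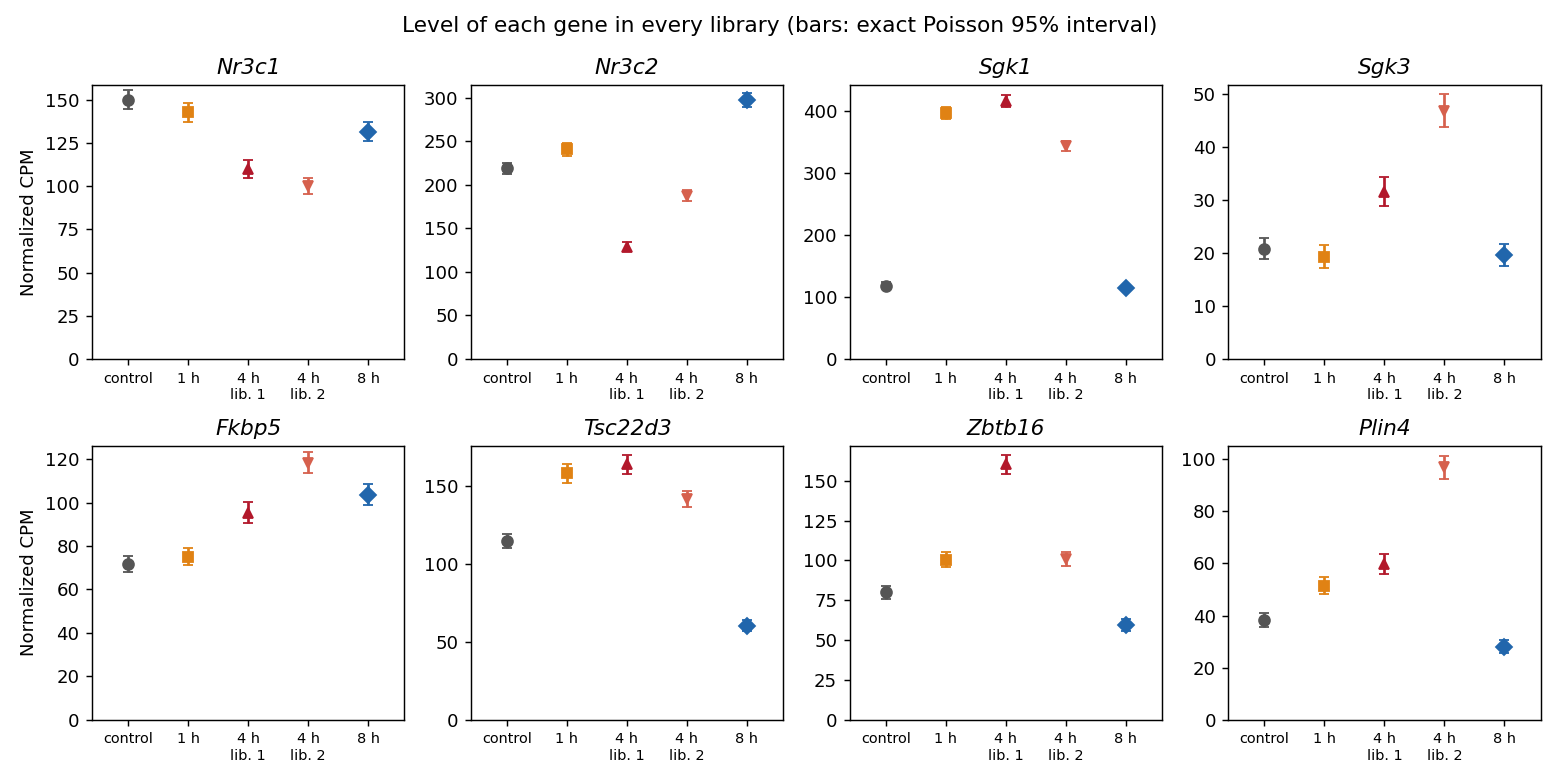
Normalized CPM of the 8 genes in the 5 libraries, each panel with its own axis from 0; points are libraries and bars exact Poisson 95% intervals. Sgk1 is high at 1 h and in both 4 h libraries and back at 115 CPM at 8 h, while Tsc22d3, Zbtb16 and Plin4 are lowest at 8 h.

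Among the target genes, Sgk1 stood out. Sgk1 (ENSMUSG00000019970.15, chromosome 10, 21882184 to 21999903, plus strand) encodes a serine/threonine kinase that regulates ion channels and transporters, and it is named for its induction by serum and glucocorticoids. It was counted 2360 times in the control, 6975 at 1 h, 7012 and 6492 in libraries 1 and 2 at 4 h, and 2016 at 8 h, which is 119, 397, 416, 343 and 115 CPM. The 1 h and both 4 h libraries were high and close together, and the control and 8 h were low and close together, with no overlap between these sets. The 1 h library was 3.35-fold (3.19 to 3.51) above the control, and the 4 h pair was 3.51-fold (3.35 to 3.68) and 2.90-fold (2.76 to 3.04) above it. For the 8 h library the ratio was 0.970 (0.913 to 1.03), with no detectable difference.

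The spread within the 4 h pair, a ratio of 0.824 (0.797 to 0.853), was far smaller than the distance of either library from the control. The edgeR fit put Sgk1 1.74 log2 units (SE 0.22) above the control at 1 h and 1.68 (SE 0.20) above it at 4 h, and it was higher in 3 of 3 libraries. Only 245 of the 19768 tested genes had a larger fold change at 1 h, and 506 did at 4 h. With adjustment over all genes, edgeR gave adjusted p = 0.685 and 0.242, and DESeq2 gave 0.000160 and 2.74e-06, so the call depends on the tool. At both times Sgk1 passed the threshold in 3 of 5 settings, and the adjusted p had a range of 6.51e-12 to 0.994 at 1 h, while for 4 h it spanned 2.14e-13 to 0.327. Sgk1 was at 416 CPM in library 1, where the choroid plexus markers were near 0, and at 343 CPM in library 2.

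Sgk3 (ENSMUSG00000025915.14, chromosome 1, 9798107 to 9900845, plus strand) encodes a related kinase that is bound to endosomes. Its level was 20.8 CPM in the control, 19.2 at 1 h, 31.5 and 46.8 in libraries 1 and 2 at 4 h, and 19.5 at 8 h. Both 4 h libraries were above the other 3, which did not differ beyond counting error. Library 1 had a ratio to the control of 1.52 (1.33 to 1.73) and library 2 one of 2.26 (2.0 to 2.54). The log2 fold change at 4 h was 0.91 with SE 0.31, and it did not pass the test (adjusted p = 0.388 by edgeR and 0.468 by DESeq2). At 1 h, when Sgk1 was 3.35-fold above the control, the ratio of Sgk3 was 0.927 (0.80 to 1.07).

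The target genes other than Sgk1 begin with Fkbp5 (ENSMUSG00000024222.17, chromosome 17, 28399094 to 28517527, minus strand). It encodes a co-chaperone of Hsp90 that lowers the affinity of the glucocorticoid receptor for its hormone. Fkbp5 was at 71.8 CPM in the control, 75.1 at 1 h, 95.3 and 118 in libraries 1 and 2 at 4 h, and 104 at 8 h. The control and the 1 h library were low, and both 4 h libraries and the 8 h library were above them. Against the control, the 1 h library had a ratio of 1.05 (0.970 to 1.13), the 4 h libraries had 1.33 (1.23 to 1.43) and 1.65 (1.54 to 1.76), and the 8 h library had 1.44 (1.35 to 1.55). With Nr3c2, Fkbp5 was one of the 2 genes of the group whose 8 h library was above the control beyond counting error. Log2 fold changes were 0.06, 0.57 and 0.53, with SE of 0.23, 0.21 and 0.23, and none passed the test (adjusted p = 1, 0.402 and 1.00).

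Tsc22d3 (ENSMUSG00000031431.13, chromosome X, 140539528 to 140600659, minus strand) encodes the glucocorticoid-induced leucine zipper protein GILZ, which restrains inflammatory transcription factors. It was counted 2283 times in the control, 2778 at 1 h, 2761 and 2678 in libraries 1 and 2 at 4 h, and 1057 at 8 h, or 115, 158, 164, 142 and 60.3 CPM. The 1 h and 4 h libraries lay together above the control, and the 8 h library lay below all others. The 1 h library was 1.38-fold (1.30 to 1.46) and the 4 h libraries 1.43-fold (1.35 to 1.51) and 1.23-fold (1.17 to 1.31) above the control, while the 8 h library had a ratio of 0.526 (0.488 to 0.566). At 8 h, 629 of the 19768 tested genes had a lower fold change. The log2 fold change there was −0.93 with SE 0.21, an unadjusted edgeR p under 0.05 that did not pass after adjustment (adjusted p = 0.882 by edgeR and 0.918 by DESeq2).

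Zbtb16 (ENSMUSG00000066687.5, chromosome 9, 48654297 to 48836222, minus strand) encodes the zinc finger repressor PLZF. Its level was 79.9 CPM in the control, 100 at 1 h, 160 and 101 in libraries 1 and 2 at 4 h, and 59.3 at 8 h. Library 1 at 4 h was high by itself, library 2 was level with the 1 h library, and 8 h was the lowest. The ratio to the control was 2.01 (1.88 to 2.14) in library 1 and 1.26 (1.18 to 1.35) in library 2, so that the pair differed more than library 2 did from the control. The 1 h library had a ratio of 1.26 (1.17 to 1.35), and the 8 h library one of 0.742 (0.685 to 0.803). The log2 fold changes of 0.33, 0.71 and −0.43 at 1, 4 and 8 h had SE of 0.34, 0.31 and 0.34 and did not pass the test (adjusted p = 1, 0.451 and 1.00).

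Plin4 (ENSMUSG00000002831.14, chromosome 17, 56100591 to 56109803, minus strand) encodes perilipin 4, a coat protein of lipid droplets. Its position was taken from version 13 of the gene identifier, while the files hold version 14, and Hdgfl2, on the other strand, shares 0.294% of its exon length. Plin4 was at 38.2 CPM in the control, 51.5 at 1 h, 59.7 and 96.8 in libraries 1 and 2 at 4 h, and 28.0 at 8 h. The order was the 8 h library, the control, 1 h and then the pair at 4 h, with library 2 well above library 1. Plin4 was 1.35-fold (1.22 to 1.49) above the control in the 1 h library and 1.56-fold (1.42 to 1.72) and 2.54-fold (2.33 to 2.76) above it in the 4 h pair, and its ratio was 0.732 (0.652 to 0.821) in the 8 h library. The log2 fold change at 4 h was 1.03 with SE 0.33 (adjusted p = 0.363 by edgeR and 0.20 by DESeq2), and it did not pass the test.

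The 4 h pair disagreed in a direction that differed between the genes. Relative to library 1, library 2 was higher for Nr3c2, Sgk3 (1.48-fold, 1.33 to 1.66), Fkbp5 (1.24-fold, 1.17 to 1.33) and Plin4 (1.62-fold, 1.5 to 1.75). It was lower for Nr3c1 (0.911, 0.854 to 0.972), Sgk1, Tsc22d3 (0.864, 0.819 to 0.911) and Zbtb16 (0.629, 0.593 to 0.667). Library 2 also had the higher oligodendrocyte and choroid plexus markers and the lower Fos, and the part of these differences in the levels of the 8 genes was not tested. Over all tested genes, the log2 ratio of the pair had an SD of 0.66. Of these 19768 genes, 1953 differed at least 2-fold within the pair. None of the 8 genes did, and in a group this small that lies near the share of all genes.

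**Figure D3:**
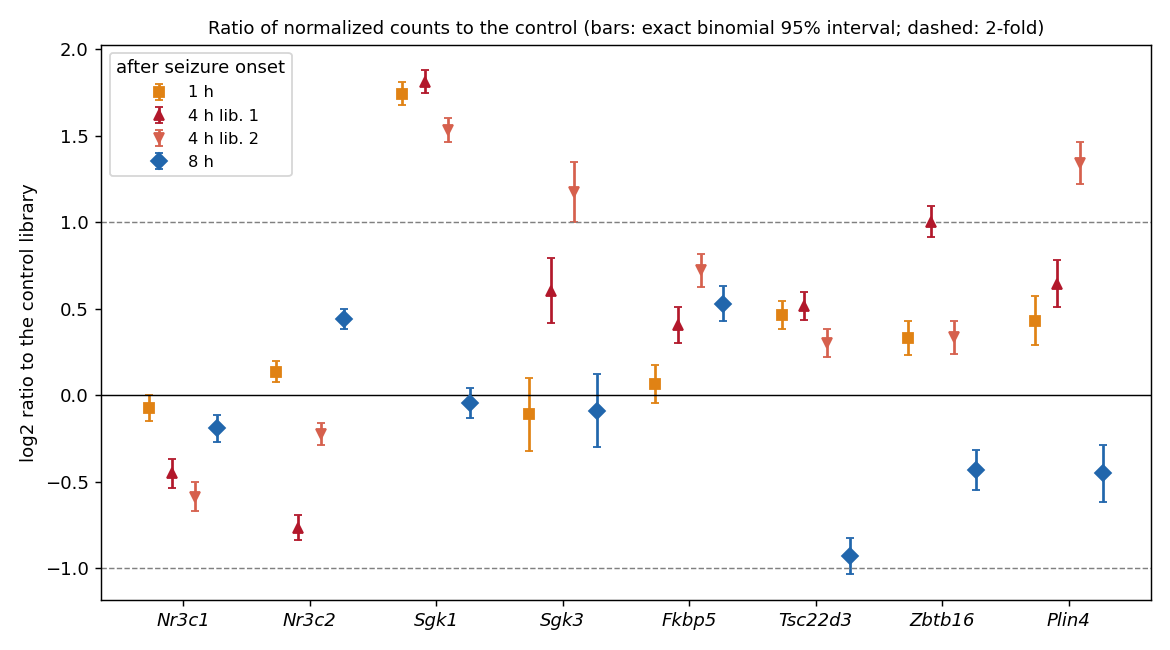
Log2 ratio of each gene to the control library in the 4 kainic acid libraries; bars are exact binomial 95% intervals and dashed lines mark 2-fold. Sgk1 lies above the 2-fold line at 1 h and in both 4 h libraries, and at 8 h Tsc22d3 lies near the lower line.

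Across the group, 1 of the 8 genes, Sgk1, was at least 2-fold higher than the control at 1 h, and 1, again Sgk1, was so in both libraries at 4 h. None was 2-fold lower at either time. Over all tested genes the share at least 2-fold higher was 4.14% at 1 h and 3.91% at 4 h, and the share at least 2-fold lower was 2.53% and 1.09%. At 8 h 0 of the 8 genes were 2-fold away from the control in either direction, beside 5.24% higher and 2.47% lower over all genes. At 4 h, library 2 alone put 3 of the 8 genes past 2-fold, Sgk1, Sgk3 and Plin4, and library 1 alone put 2 there, Sgk1 and Zbtb16, all higher. Over all tested genes, library 2 alone put 5.33% higher and 2.67% lower, and library 1 alone put 10.6% higher and 5.68% lower. In the fit, which joins both libraries at 4 h, the 8 genes had median log2 fold changes of 0.23, 0.64 and −0.14 at 1, 4 and 8 h, where that of all tested genes was −0.01, 0.01 and 0.01.

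After adjustment over all genes, edgeR called 0 of the 8 at any time point, and the shares it called over all genes at 1, 4 and 8 h were 0%, 0.00506% and 0%. The gene behind the share at 4 h was ETV3L, named here after its value was seen. An unadjusted p under 0.05 was found for 1 of the 8 at 1 h, 5 at 4 h and 1 at 8 h, beside 2.42%, 11.6% and 4.51% of all genes. The 5 at 4 h were Nr3c1, Sgk1, Sgk3, Fkbp5 and Plin4. DESeq2 called 1 of the 8, Sgk1, at each of the 2 earlier times, and 0 at 8 h, beside 0.449%, 1.7% and 0.235% of the genes with an adjusted p. A missing call does not show that a level was the same.

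Levels of different genes were compared per kb of exon, with the length of all annotated exons of a gene joined. In the control, Nr3c2 was highest with 33.8 CPM per kb, followed by Tsc22d3 with 26.4, Sgk1 with 24.2, Nr3c1 with 19.5, Zbtb16 with 15.1, Fkbp5 with 7.58, Plin4 with 6.61 and Sgk3 with 1.45. No neighbours in this order had overlapping counting intervals in the control. These intervals do not cover the choice of length, which joins exons of transcripts that may not be expressed, so close ranks are not settled. At 1 h and in both 4 h libraries Sgk1 was first, with 80.9, 84.9 and 70.0 CPM per kb. At 8 h Nr3c2 was first again with 45.9 CPM per kb and Sgk1 followed with 23.5. Sgk3 was last in every library, between 1.34 and 3.27 CPM per kb.

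The intervals of some neighbours overlapped in the other libraries. These were Nr3c2 with Tsc22d3 and Zbtb16 with Nr3c1 at 1 h, Plin4 with Fkbp5 at 1 h and in library 1 at 4 h, Nr3c1 with Fkbp5 in library 2 at 4 h, and Zbtb16 with Fkbp5 at 8 h. In the control, transcripts of the mineralocorticoid receptor exceeded those of the glucocorticoid receptor on this scale, 33.8 against 19.5 CPM per kb. The order of the 2 receptors was the same in all 5 libraries.

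**Figure D4:**
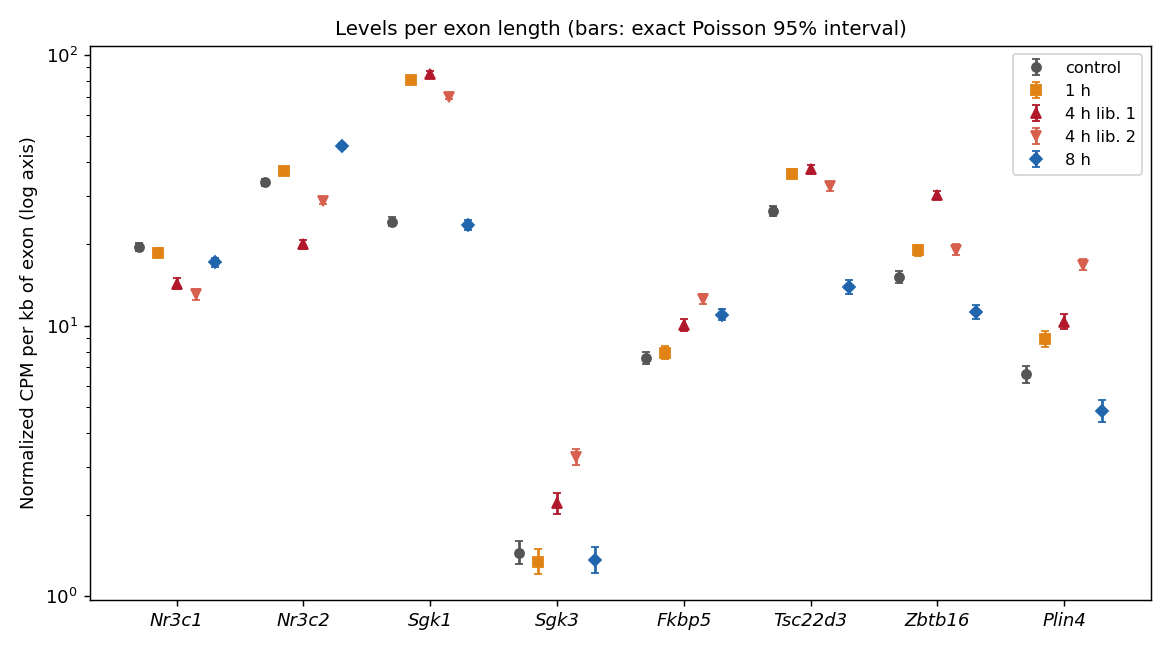
Normalized CPM per kb of exon (log axis) for the 8 genes in the 5 libraries, with exact Poisson 95% intervals. Sgk1 moves to the top at 1 h and 4 h, and Sgk3 stays lowest, below 3.5 CPM per kb.

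Other genes of the pathway were read from lists, which were chosen with earlier results of these data known. Of 18 other genes known to be induced by glucocorticoids, 4 were at least 2-fold higher at 1 h, 8 in both libraries at 4 h and 4 at 8 h, and 0 were 2-fold lower at any time. The shares are 22.2%, 44.4% and 22.2%, beside 4.14%, 3.91% and 5.24% of all genes. Some genes of this list also respond to other stimuli, and the part of glucocorticoids in these shares was not tested at any time. The list had median log2 fold changes of 0.67, 1.05 and 0.06 at 1, 4 and 8 h. edgeR called 0 of the 18 at each time, with an unadjusted p under 0.05 for 8, 9 and 5, beside 2.42%, 11.6% and 4.51% of all genes. DESeq2 called 2, 6 and 0, all higher, beside 0.449%, 1.7% and 0.235% of the genes with an adjusted p. The 2 at 1 h were Per1 and Cdkn1a, and the 5 with a p under 0.05 at 8 h were Cdkn1a, Mt1, Mt2 and Lcn2, which were higher than the control, and Klf15, which was lower (15.6 CPM against 30.0), named after their values were seen. Library 1 alone put 12 of the 18 at least 2-fold higher at 4 h and library 2 alone put 8, beside 10.6% and 5.33% of all genes.

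At 1 h the leading genes of this list were Errfi1, an inhibitor of the EGF receptor, with 540 CPM against 45.4 in the control, and Dusp1, a phosphatase of MAP kinases, with 87.9 against 8.09. Cdkn1a, an inhibitor of the cell cycle, and the clock gene Per1 followed with 14.6 CPM against 2.71 and 169 against 35.9. All 4 are also known as genes that respond to other stimuli, including neuronal activity. At 4 h the genes were ordered by the smaller of the ratios of libraries 1 and 2. Lcn2, an iron-binding protein of reactive astrocytes, had 4.93 and 5.34 CPM in the pair against 0.301 in the control, and Cdkn1a had 51.9 and 26.4. The control level of Lcn2 lay near the floor of 3 counts, which was 0.151 CPM there. At 1 h Lcn2 had 0.114 CPM, under the floor of 0.171 CPM, so its ratios rest on few reads in the control. Angptl4, an inhibitor of lipoprotein lipase, had 11.5 and 6.77 CPM at 4 h against 1.41, and the metallothionein Mt2 had 221 and 147 against 40.2. Errfi1, at 361 and 143 CPM, came next in this order, although its fitted log2 fold change of 2.47 was above the 2.19 of Mt2. At 8 h the 4 genes past 2-fold were the same as those named first for 4 h, with 5.76 CPM for Lcn2, 9.07 for Cdkn1a, 91.2 for Mt2 and 3.25 for Angptl4.

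Of 8 chaperones that hold the receptors ready for hormone, 1 was at least 2-fold higher at 1 h and 0 in both libraries at 4 h or at 8 h, beside 4.14%, 3.91% and 5.24% of all genes. This was Dnajb1, a heat shock protein, with 48.6 CPM in the control, 179 at 1 h, 213 and 41.2 in libraries 1 and 2 at 4 h, and 41.6 at 8 h. It was high at 1 h and in library 1 only. No chaperone was called by edgeR or DESeq2. An unadjusted edgeR p under 0.05 was found for 0, 1 and 0 of them at 1, 4 and 8 h, beside 2.42%, 11.6% and 4.51% of all genes. This was Hsp90aa1, with 929 CPM in the control and 1762 and 1245 in libraries 1 and 2 at 4 h (log2 fold change 0.69), named after its value was seen. Of 9 coregulators of the receptors, 0 were 2-fold away from the control at 1 h, in both 4 h libraries or at 8 h. Over all genes, 6.68%, 5.0% and 7.71% were so in either direction, and in a list of 9 a count of 0 lies near these shares. The coregulators had median log2 fold changes of 0.06, −0.02 and 0.04 at 1, 4 and 8 h.

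Among 6 genes of corticosteroid metabolism and transport, Hsd11b2, which inactivates corticosterone in mineralocorticoid target organs, had 0 counts in all 5 libraries. The floor of 3 counts used here lay between 0.151 CPM in the control and 0.178 CPM in library 1 at 4 h. The other 5 genes of this list were tested. Of these, 0 were 2-fold away from the control at 1 h, in both 4 h libraries or at 8 h, where 6.68%, 5.0% and 7.71% of all genes were so in either direction. With lists of 5 to 7 genes, here and below, a count of 0 lies near these shares. Abcb1a, an efflux transporter named here after its values were seen, was at least 2-fold lower in library 1 alone. Of 6 genes around the SGK kinases (their activators, targets and Sgk2), 0 were 2-fold away at any time. Of 7 tested relatives of the targets, among the TSC22, perilipin and FKBP families, 0 were 2-fold away at 1 h, in both libraries at 4 h or at 8 h. Tsc22d2, named here after its values were seen, was at least 2-fold higher in library 1 alone. Plin1 of this list had between 0 and 4 counts and was not tested. The relatives had median log2 fold changes of 0.06, 0.56 and 0.13 at 1, 4 and 8 h.

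DESeq2 and edgeR called 0 genes of these 3 lists at any time. An unadjusted edgeR p under 0.05 was found at 4 h for 1 of the metabolism genes, 0 of the SGK pathway genes and 2 of the relatives, beside 11.6% of all genes, and for 0 of each list at 1 h and 8 h. These were Abcb1a, Tsc22d1 and Tsc22d2, named after their values were seen. Abcb1a had 34.5 CPM in the control and 13.8 and 22.2 in libraries 1 and 2 at 4 h (log2 fold change −0.93). Tsc22d1 had 285 CPM in the control and 519 and 379 in the pair (0.65), and Tsc22d2 had 48.5 in the control and 174 and 80.4 in the pair (1.39). For each of the 3, library 1 lay farther from the control than library 2.

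**Figure D5:**
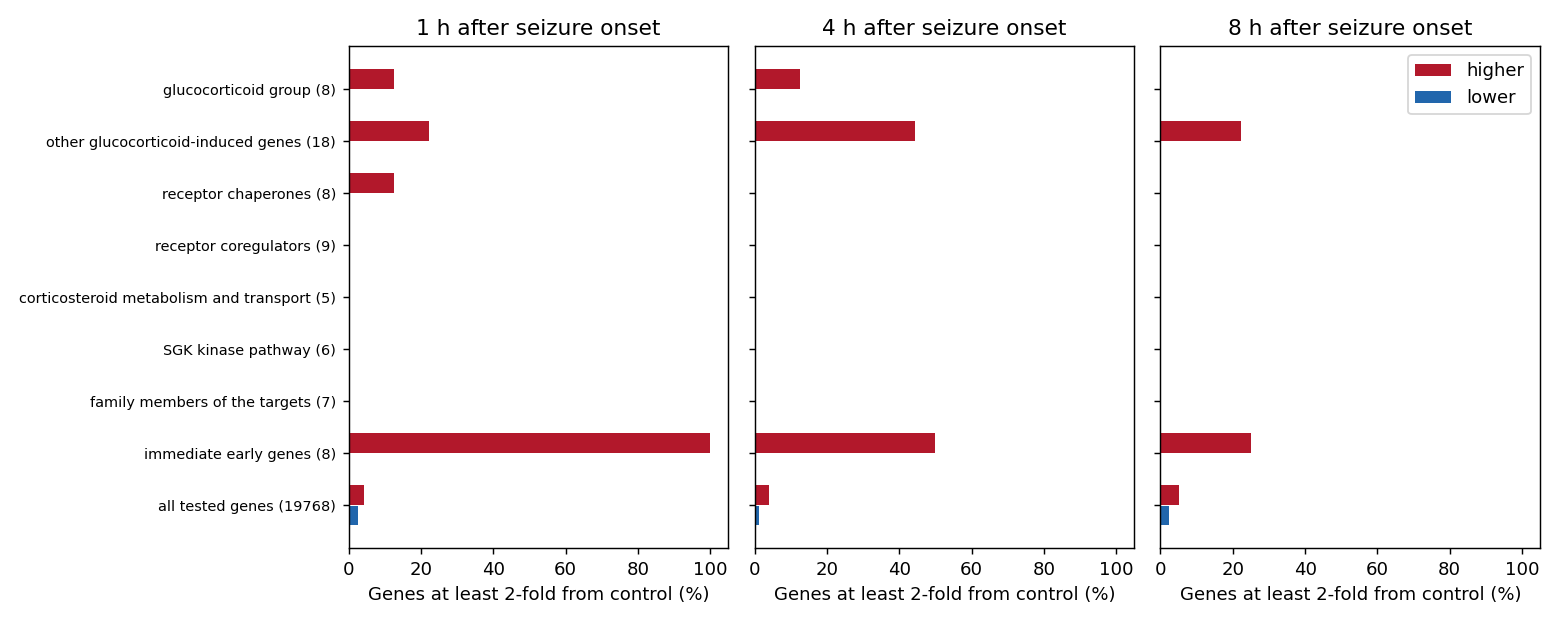
Percent of tested genes in each list that were at least 2-fold higher (red) or lower (blue) than the control at 1, 4 and 8 h, in both libraries at 4 h, with the number of genes in brackets. The bars of all 19768 tested genes, at the bottom, give the background, 4.14%, 3.91% and 5.24% higher.

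For the 6 genes whose log2 level spanned more than 1 over the 5 libraries, the 3 genes with the most alike profile were found among 16220 genes with a mean of at least 1 CPM, by the Euclidean distance between mean-centred log2 CPM profiles. Those nearest to Sgk1 were Depp1 (distance 0.37), Slc16a1 (0.46), a transporter of lactate, and Tcim (0.47). Slc16a1 had 50.3 CPM in the control, 127 at 1 h, 164 and 103 in libraries 1 and 2 at 4 h, and 48.0 at 8 h. These genes were picked for their likeness over the same 5 libraries, so that a shared order of the libraries is no result. With only 5 libraries many genes share a profile, and a small distance is a description.

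The genes nearest to Tsc22d3 were Pdk4 (0.24), Mvk (0.25) and Cartpt (0.25). Pdk4, a kinase that restrains glucose oxidation and one of the 18 listed glucocorticoid-induced genes, had 8.19 CPM in the control, 14.1 at 1 h, 14.3 and 11.7 in libraries 1 and 2 at 4 h, and 5.02 at 8 h. Nearest to Zbtb16 were Fgfr1op (0.14), Ccdc86 (0.17) and Pmp22 (0.18), and nearest to Plin4 were Gm7192 (0.42), Cacng5 (0.44) and Met (0.44). Nearest to Sgk3 were Gm3248 (0.30), Esf1 (0.31) and Tmco4 (0.33), and nearest to Nr3c2 were Zfyve26 (0.11), Mks1 (0.14) and Gm5881 (0.14). Nr3c1 and Fkbp5 spanned 0.58 and 0.72 on the log2 scale and were not compared.

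Read by time, the group had no common course. At 1 h Sgk1, Tsc22d3, Zbtb16, Plin4 and Nr3c2 were above the control beyond counting error, and Nr3c1, Sgk3 and Fkbp5 were not. At 4 h the 6 genes other than the receptors were above the control in both libraries, and both receptors were below it. At 8 h Tsc22d3, Zbtb16, Plin4 and Nr3c1 were below the control, Fkbp5 and Nr3c2 were above it, and Sgk1 and Sgk3 were not detectably different. These statements compare single libraries, and apart from the 4 h pair they have no replicate check.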

How the data were processed

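The authors made stranded total RNA libraries, aligned paired-end reads with STAR 2.5.1b to GRCm38.p4 and counted them with HTSeq, per the submitters' processing notes and the study's methods. They deposited one count of reads per gene and library, not normalized. Neither the strand setting nor the annotation release is given in the sources used here. Reads on no gene (24.7% of the control library, 29.0% of 1 h, 33.1% and 25.3% of the 4 h pair and 30.9% of 8 h) were left out of library sizes.

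The analysis used edgeR 4.0.16 in R 4.3.3: filterByExpr, TMM factors (1.04, 0.992, 0.924, 0.991 and 1.06) and a quasi-likelihood fit of 4 conditions to 5 libraries, with 1 residual degree of freedom, an adjusted p threshold of 0.05 (Benjamini-Hochberg over 19768 genes) and log2 fold changes with a prior count of 2. The fit had a biological coefficient of variation of 0.238. DESeq2 1.42.0 was the other test. The 2-fold counts are descriptions from log2 CPM with the same prior count. The settings tried in place of these were DESeq2, no filter, library size alone, median-of-ratios factors, a prior count of 0.125 (which leaves p as it is), a fold of 1.5 and each 4 h library left out.

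Positions and exon lengths came from GENCODE M21 (GRCm38), which held 55144 of the 55385 gene identifiers, 54487 with the same version. Intervals and figures were made with scipy 1.17.1 and matplotlib 3.10.9 in Python 3.11.15. A count of 3 was the floor. The rule for naming took the 8 genes, up to 4 genes per list and time with the largest log2 ratio past 2-fold (at 4 h the smaller of the pair), and the 3 nearest profiles. The members and lists were chosen with earlier results of these data known. The p values compare each time point with the single control library. The spread they use comes from the 4 h libraries and is moderated over all genes, in edgeR with 4.42 prior degrees of freedom.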

Additional observations from a re-analysis of the deposited data

Results flagged for a closer look

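Several genes of the group lay on opposite sides of the control at different times, in every library of both times and beyond counting error. The differences between times were not tested, the control library is shared by all of them, and 1 h and 8 h are single libraries. The part of time of day in these differences was not tested either. Tsc22d3 was above the control at 1 h and 4 h and below it at 8 h, and its log2 ratio to the control at 8 h minus that at 1 h was −1.39, and minus that at 4 h −1.34. Zbtb16 took the same course, with differences of −0.76 from 1 h and −1.10 from 4 h. Plin4 did so as well, with −0.88 from 1 h and −1.44 from 4 h. Nr3c2 went the other way: its log2 ratio at 4 h minus that at 1 h was −0.63, and at 8 h minus that at 4 h it was 0.94. For Zbtb16, Plin4 and Nr3c2 the 2 libraries at 4 h were themselves at least 1.45-fold apart.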

How the results depend on the processing

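Only 4 h is replicated, the residual degree of freedom is 1, and the 1 h and 8 h comparisons rest on single libraries, so the calls depend on how the spread is modelled. The cause of each shift below was not tested. The number of genes called at 1, 4 and 8 h, 0, 1 and 0 by edgeR, was 57, 237 and 22 with library size alone, 285, 1300 and 279 with no filter on low counts, and 56, 238 and 33 by DESeq2, and 0 at 4 h with median-of-ratios factors. Genes at least 2-fold from the control numbered 1320, 988 and 1524, and 3490, 2925 and 4117 with a fold of 1.5. With each library at 4 h left out in turn, the 988 became 1581 without library 1 and 3225 without library 2.

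Of the 8 genes, 1, 1 and 0 were at least 2-fold from the control. At a fold of 1.5 the count was 3 at 4 h and 1, Tsc22d3, at 8 h, beside 14.8% and 20.8% of all genes. Without library 1 at 4 h it was 3, and without library 2 it was 2, beside 8.0% and 16.3%. Of 96 log2 fold changes of the 8 genes under the 4 alternatives that change the test, 85 kept their direction and side of the threshold, 10 passed the threshold, and 1 changed sign: Fkbp5 at 1 h was −0.0083 with library size alone. The 10 were Sgk1 at 1 h and 4 h, each under DESeq2, library size alone and no filter, and, with no filter, Sgk3, Zbtb16 and Plin4 at 4 h and Tsc22d3 at 8 h. The shares of all genes called at 1, 4 and 8 h were 0.871%, 3.97% and 0.852% of 32732 with no filter and 0.288%, 1.20% and 0.111% of 19768 with library size alone. Library size alone moved the median log2 fold change of all genes at 4 h to −0.11 and the share of higher genes among those past 2-fold from 78.2% to 67.0%.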

Other observations

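The astrocyte marker Gfap, whose protein marks reactive astrocytes, was at 221 CPM in the control, 272 at 1 h, 596 and 510 in libraries 1 and 2 at 4 h, and 587 at 8 h. It was at least 2-fold higher in both 4 h libraries and at 8 h, beside 3.91% and 5.24% of all genes, and it was the one of 6 astrocyte markers that was so. DESeq2 called Gfap at 4 h and at 8 h and edgeR called it at neither time. Aqp4, Gfap and Aldh1l1 had an unadjusted edgeR p under 0.05 at 4 h, beside 11.6% of all genes, and Gfap and Gja1 did at 8 h, beside 4.51%. All were higher than the control apart from Gja1 (98.6 CPM against 195), and they are named after their values were seen. Of 6 choroid plexus markers, 4 were at least 2-fold lower at 1 h, beside 2.53% of all genes. In library 1 at 4 h all 6 were so, beside 5.68%, and in library 2 0 were, beside 2.67%. Of the 6 markers each of neurons, oligodendrocytes, microglia, endothelial and mural cells, and blood cells, 0 were 2-fold from the control at 1 h, in both libraries at 4 h or at 8 h. Over all genes, 6.68%, 5.0% and 7.71% were so in either direction. Library 1 alone put 4 of them, Gad1, Prox1, Hbb-bt and Alas2, at least 2-fold higher and 2, P2ry12 and Slco1a4, at least 2-fold lower, beside 10.6% and 5.68% of all genes, while library 2 alone put 0 there, beside 5.33% and 2.67%, named after their values were seen. An unadjusted edgeR p under 0.05 was found at 4 h for Gad1, Prox1 and Mobp, which were higher than the control, and for Rbfox3 and P2ry12, which were lower, and at 8 h for Pecam1, which was higher, beside 11.6% of all genes at 4 h and 4.51% at 8 h. DESeq2 called Prox1, a marker of granule cells, at 4 h, with 60.0 CPM in the control and 172 and 120 in libraries 1 and 2.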
